A study of Mus musculus with 10 samples.

Results

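The 9 Hedgehog signalling genes Ihh, Dhh, Ptch1, Smo, Gli1, Gli2, Gli3, Hhip and Sufu were picked by symbol from the 55487 genes of the deposited count table. No value was a criterion, but the genes were chosen with earlier results of these data known. All 9 passed the filter on low counts and were among the 18956 genes tested. RNA came from whole ovaries of C57BL/6J mice, and each of the 10 ovaries had its own library. The Control group was 4 mice aged 8 weeks. The Aged group was 3 mice, and the Aged+CF group was 3 mice of the same age given 200 μL of CEFFE at 3 μg/μL into the tail vein every 2 days for 2 weeks. CEFFE is a cell-free protein extract of emulsified fat tissue, and Control and Aged mice received saline by the study's methods. The older mice were 11 months old by the labels and 10 months old by the methods. All mice, Control included, had been injected with 10 IU of PMSG, a gonadotropin that drives follicle growth, 48 h before the ovaries were taken. Aged vs Control thus compares ages, and Aged+CF vs Aged compares the extract with saline in older mice.

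Hedgehog proteins are secreted ligands. In a cell without ligand, the receptor PTCH1 holds the transducer SMO inactive, and SUFU with the full-length GLI factors keeps target genes low, GLI3 mainly as a repressor. Ligand binding releases SMO at the primary cilium, GLI2 and GLI3 are no longer processed to repressors, and GLI1, PTCH1 and HHIP are transcribed, the last of these a surface protein that traps the ligand. In the growing follicle the granulosa cells make IHH and DHH under the influence of the oocyte, and the response is read in the surrounding stroma, from which theca cells arise. Ptch1, Gli1 and Hhip are thus the usual readouts of the pathway, and a whole-ovary library holds sender and receiver cells together.

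No theca cells were isolated, so the link to theca was checked on its markers. Cyp17a1, the theca enzyme that makes androgens, stood at 243, 297, 69.4 and 53.0 CPM (counts scaled to library size, with TMM factors) in the 4 Control ovaries, at 16.9, 146 and 504 in Aged ovaries, and at 21.4, 11.1 and 64.0 in Aged+CF. Insl3, a peptide hormone of theca, stood at 8.64, 9.35, 6.24 and 14.4 CPM in Control, at 3.28, 4.16 and 3.64 in Aged ovaries, and at 3.33, 4.08 and 10.6 in Aged+CF. Both defining markers were detected in every ovary, and they did not move alike. The summed theca list was 8462 ± 1955 CPM in Control (SD, n = 4), 23101 ± 8211 in Aged ovaries and 13962 ± 2534 in Aged+CF (n = 3 each), but it holds the steroid genes Cyp11a1, Star, Lhcgr and Hsd3b1, of which luteal cells also express high levels. The levels below are therefore those of the whole ovary and are not assigned to theca.

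The library of Aged replicate 34 stood apart from the others. Its Amh, the growing-follicle hormone, was at 3.25 CPM against 90.2 and 131 in the other Aged ovaries, and its oocyte factor Gdf9 was at 3.64 against 22.5 and 25.8. Its Ihh and Hhip were also the lowest of all ovaries, while its Cyp17a1 was the highest. Depth was even, from 15761789 to 21318254 reads counted on genes per ovary, and no pair of libraries of the same group agreed within counting noise. Markers of the oviduct epithelium were also high in that library, with Ovgp1 at 245 CPM against 2.15 and 1.41 in the other Aged ovaries and Foxj1 at 32.3 against 0.119 and 0.141. Control replicate 33 was the other ovary of this kind, with Ovgp1 at 298 CPM and Foxj1 at 36.7. The summed oviduct list was 299.2 CPM in Aged replicate 34, 354.1 in Control replicate 33 and 5.93 to 35.2 in the rest. Dcn, a fibroblast marker, stood at 1226 CPM in Aged replicate 34 against 331 and 233 in the other Aged ovaries. The part of these markers in the Hedgehog values was not tested. Hedgehog genes whose call changed without Aged replicate 34 are given both ways.

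Promoter sequences were read from RefSeq (GRCm38.p6) for 8 of the 9 genes, and Gli1 had no entry. Those of both ligands and of the targets Ptch1 and Hhip are shown, since the ligands differed in their pattern over the groups and both targets had their lowest mean in Aged. Each is the 250 bases before the start site on the minus strand, 5′ to 3′, at chr1:74951673-74951922 for Ihh, chr15:98898541-98898790 for Dhh, chr13:63565736-63565985 for Ptch1 and chr8:80058009-80058258 for Hhip. Capitals would mark the GLI motif GACCACCCA or its reverse complement TGGGTGGTC, and there are none.
Ihh: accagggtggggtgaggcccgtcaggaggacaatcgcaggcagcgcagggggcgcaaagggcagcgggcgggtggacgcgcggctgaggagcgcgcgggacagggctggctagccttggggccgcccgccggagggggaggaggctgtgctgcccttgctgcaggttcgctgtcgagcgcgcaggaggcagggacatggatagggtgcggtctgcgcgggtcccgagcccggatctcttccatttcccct
Dhh: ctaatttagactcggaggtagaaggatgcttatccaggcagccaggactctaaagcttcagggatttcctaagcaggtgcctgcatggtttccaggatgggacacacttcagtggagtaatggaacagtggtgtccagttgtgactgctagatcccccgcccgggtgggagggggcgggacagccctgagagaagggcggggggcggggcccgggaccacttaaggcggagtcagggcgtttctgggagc
Ptch1: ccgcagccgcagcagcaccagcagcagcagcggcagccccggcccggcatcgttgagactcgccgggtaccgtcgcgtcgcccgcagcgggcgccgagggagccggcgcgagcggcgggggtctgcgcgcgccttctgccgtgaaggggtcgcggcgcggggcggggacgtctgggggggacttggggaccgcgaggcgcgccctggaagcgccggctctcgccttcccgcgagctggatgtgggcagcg
Hhip: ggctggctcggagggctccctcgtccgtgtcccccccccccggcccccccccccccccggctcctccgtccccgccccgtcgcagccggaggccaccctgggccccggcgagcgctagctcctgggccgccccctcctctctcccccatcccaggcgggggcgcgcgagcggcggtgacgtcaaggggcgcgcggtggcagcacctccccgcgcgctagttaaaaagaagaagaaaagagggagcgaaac
No match to the motif was found in the 300 bases around the start (250 before, 50 after) of any of the 8 genes, exact or with 1 base different, on either strand. Of all 32851 promoters in the RefSeq table, 0.253% held an exact match and 6.74% a match with at most 1 base different, so these letters are rare in windows of this length. The windows of Ihh, Ptch1 and Hhip were rich in CpG, with 30, 47 and 30 CpG dinucleotides and a GC content of 72.7%, 76.3% and 73.7%, whereas the Dhh window had 12 and 61.7%. The medians over all promoters were 7 CpG dinucleotides and 52.7%. The Ptch1 window lay inside the gene's annotated interval, in no annotated exon, and 10 transcripts of that gene are annotated.

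Ptch1 and Gli1 fell in Aged vs Control, and no Hedgehog gene was called higher. A call needed a fold of 1.5 or more together with a Benjamini-Hochberg adjusted p under 0.05 in edgeR's quasi-likelihood test, fitted to all genes and all 10 ovaries. In Aged vs Control, 2 of the 9 genes were called, both lower, where 11.1% of all genes tested were called, 6.06% lower and 5% higher. With the fold limit dropped, 4 of 9 passed, all lower (8.3% of all genes), and at an unadjusted p under 0.05 with the fold limit, 3 of 9, again all lower (9.44% of all genes). The ranges of Aged and Control did not overlap for 6 of the 9, lower in Aged each time (15.6% of all genes). For the 9 genes the median was -0.49 on the log2 scale, and that of all genes tested was near 0.

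**Figure D1:**
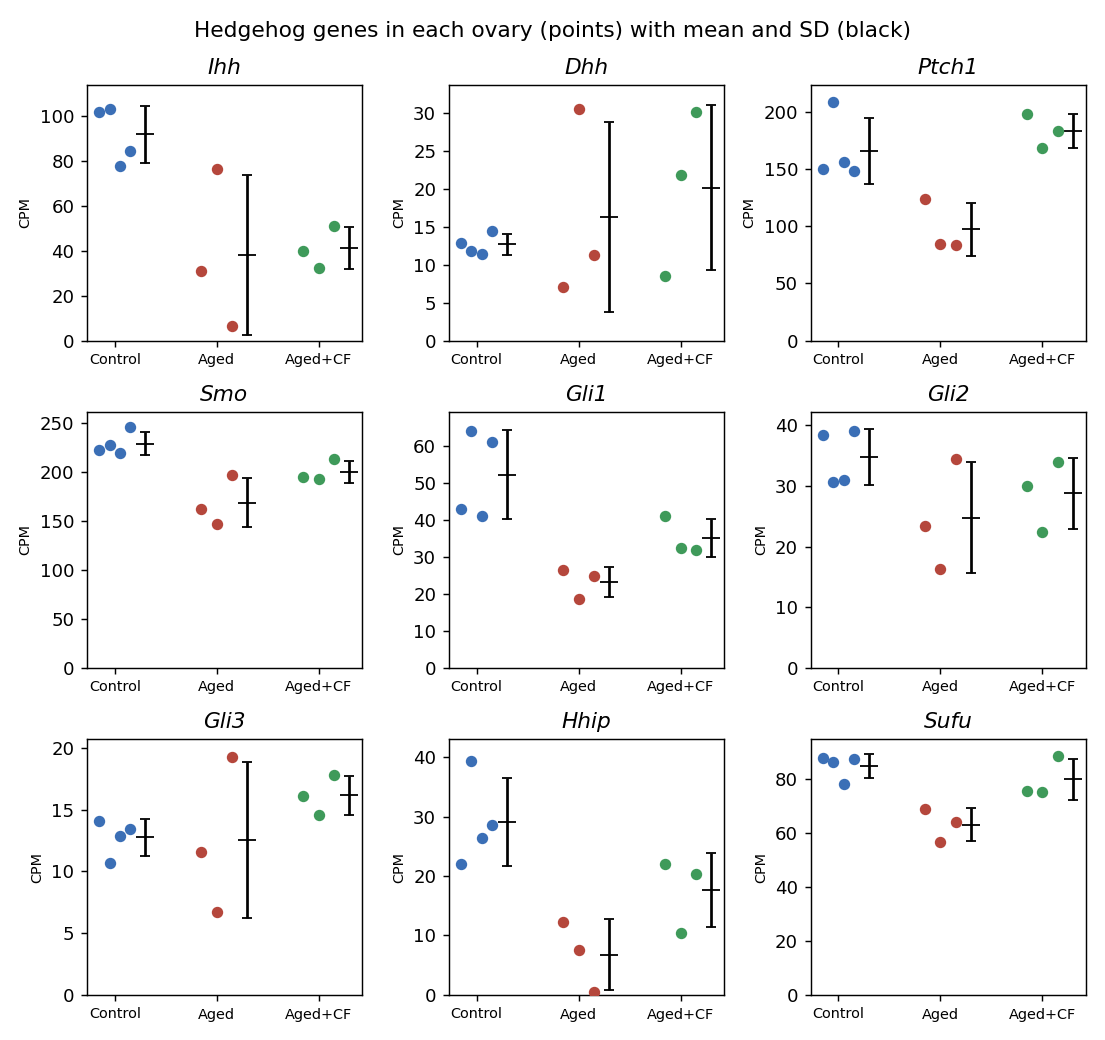
Level of each Hedgehog gene in CPM (vertical axes, from 0) in each ovary of the 3 groups, as points, with the group mean and SD in black (Control n = 4, Aged and Aged+CF n = 3). The 3 Aged points lie below all Control points for Ihh, Ptch1, Smo, Gli1, Hhip and Sufu, and the Aged+CF points lie above all Aged points for Ptch1, Gli1 and Sufu.

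Ihh (ENSMUSG00000006538, chr1:74945315-74951672, minus strand), the main Hedgehog ligand of the growing follicle, stood at 102, 103, 77.9 and 84.4 CPM in the Control ovaries. It stood at 31.02, 76.5 and 6.40 in Aged and at 39.9, 32.5 and 51.1 in Aged+CF. Every ovary of the older mice, treated or not, was below every Control ovary, and the Aged ovaries differed among themselves by far more than those of the other groups. The means were 91.8 ± 12.6 in Control (SD, n = 4), 38.0 ± 35.6 in Aged ovaries and 41.2 ± 9.38 in Aged+CF (n = 3 each). The log2 fold change was -1.28 (SE 0.59) in Aged vs Control with an adjusted p of 0.171 in edgeR, and -1.16 (SE 0.59) in Aged+CF vs Control with an adjusted p of 0.398, so neither passed. Aged+CF vs Aged gave 0.12 (95% interval -1.24 to 1.49, adjusted p 0.939), and the groups overlapped.

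The Ihh result depended on single Aged ovaries. Without Aged replicate 33, the highest of them, Aged vs Control gave -2.26 with an edgeR adjusted p of 0.0306, which passed, and without Aged replicate 34, the lowest, it gave -0.74 with an adjusted p of 0.128. In whole-ovary RNA, fewer granulosa cells and less Ihh RNA per granulosa cell cannot be told apart. The summed granulosa list (10 genes) was 6802 ± 1194 CPM in Control, 4040 ± 593 in Aged ovaries and 4343 ± 1192 in Aged+CF, with ranges of 5192 to 8079, 3364 to 4470 and 2968 to 5089. In Aged vs Control all 10 of its genes had a negative fold change and 1, Esr2, was called, while Foxl2, which marks granulosa cells of all stages, stood at 366 to 443 CPM in Control and 311 to 351 in Aged. Their part in the Ihh difference was not tested.

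Dhh (ENSMUSG00000023000, chr15:98891152-98898540, minus strand), the second ligand of granulosa cells, did not follow Ihh. It stood at 12.9, 11.8, 11.4 and 14.5 CPM in Control, at 7.04, 30.5 and 11.2 in Aged ovaries, and at 8.49, 21.8 and 30.05 in Aged+CF. The Control ovaries lay close together, and both older groups spread to either side of them. The log2 fold change was 0.36 (95% interval -0.75 to 1.46) in Aged vs Control, 0.31 (-0.87 to 1.49) in Aged+CF vs Aged and 0.67 (-0.43 to 1.77) in Aged+CF vs Control, with edgeR adjusted p-values of 0.672, 0.8 and 0.56. Dhh shares 546 exon bases with Rhebl1 on the same strand and 1107 with an antisense gene, Gm49442, and how reads on them were assigned is not given in the sources used here. Its level is uncertain to that extent, with 118 to 641 reads on Dhh against 72 to 171 on Rhebl1 and 25 to 115 on Gm49442.

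Because the ligands are both made by granulosa cells, their ratio was taken within each ovary from the deposited FPKM, which is scaled by length. Ihh was 10.1, 11.2, 8.79 and 7.47 times Dhh in the Control ovaries. It was 5.65, 3.22 and 0.729 times Dhh in Aged, and 6.03, 1.91 and 2.18 times in Aged+CF. No older ovary reached the lowest Control ratio, and Aged replicate 34 was the only ovary with less Ihh than Dhh. On the log2 scale the ratio was 3.21 ± 0.25 in Control ovaries, 1.24 ± 1.53 in Aged ovaries and 1.55 ± 0.91 in Aged+CF. Against Control the difference was -1.97 for Aged and -1.66 for Aged+CF, each with p = 0.0286 in a two-sided exact permutation test, the smallest p that 4 against 3 ovaries can give. Aged+CF vs Aged differed by 0.31 with an exact p of 0.8, where the smallest possible is 0.1. Adjusted over the 6 ratio comparisons made, the exact p-values became 0.0572, 0.0572 and 0.9, so none passed. The overlap of Dhh with Rhebl1 enters this ratio too.

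**Figure D2:**
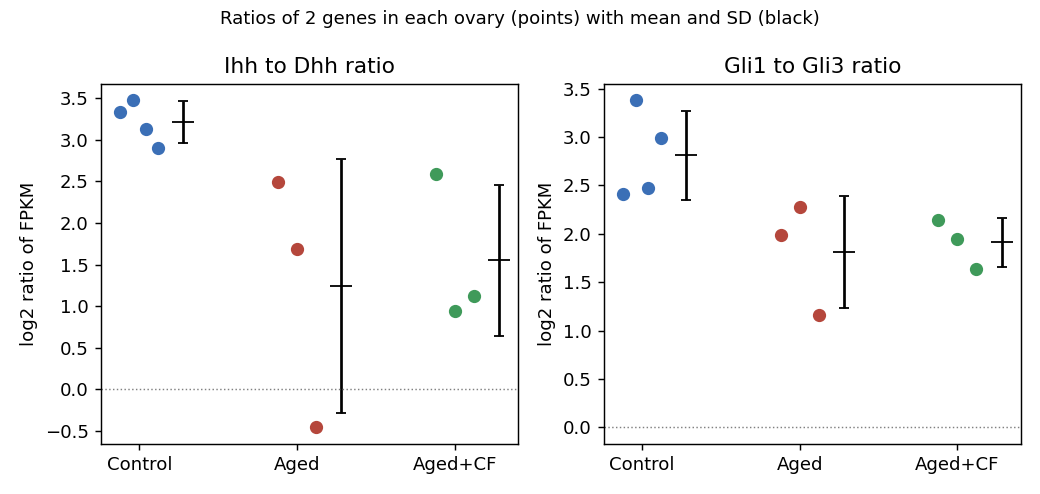
Log2 ratio of Ihh to Dhh FPKM (left) and of Gli1 to Gli3 FPKM (right) in each ovary, as points, with the group mean and SD in black (Control n = 4, Aged and Aged+CF n = 3). In both panels all Control points lie above all points of the older groups, and the Aged and Aged+CF points overlap.

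Ptch1 (ENSMUSG00000021466, chr13:63508328-63573598, minus strand), the receptor and a direct target of the pathway, was lower in Aged. Its level was 150.3, 208, 156 and 148 CPM in Control, 124, 84.8 and 83.3 in Aged ovaries, and 198, 169 and 183 in Aged+CF. The Aged ovaries lay below all others. The Aged+CF ovaries lay within the Control range only through Control replicate 32 at 208 CPM, and above every other Control ovary. The means were 166 ± 28.5, 97.4 ± 23.2 and 183 ± 14.96 CPM. Ptch1 fell 1.70-fold in Aged vs Control (log2 fold change -0.77, SE 0.17, edgeR adjusted p 0.0184). The call was lost without Aged replicate 33, where the log2 fold change was -0.64 and the adjusted p 0.0627.

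In Aged+CF vs Aged, Ptch1 was 1.88 times as high (log2 fold change 0.91, SE 0.18), with an unadjusted p of 0.000534 and an edgeR adjusted p of 0.15, so it did not pass at the adjusted p. Only 1 gene of the whole table did in that edgeR fit (0.00528% of those tested), and it was no Hedgehog gene. This low number depended on the ovaries and on the test used. Without Aged replicate 34, 556 genes passed at the adjusted p in edgeR (2.87% of those tested), again with none of the 9. DESeq2's Wald test on all ovaries called 445. The log2 fold change of Ptch1 in Aged+CF vs Control was 0.15 (95% interval -0.23 to 0.52, adjusted p 0.734). The Aged ovaries enter the contrast with Control as well as that with Aged+CF, so that a low value in them moves both, with opposite signs.

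Gli1 (ENSMUSG00000025407, chr10:127329882-127341974, minus strand), the activator whose transcription is the standard readout of Hedgehog signalling, had the smallest p of the 9 in Aged vs Control. Its level was 42.9, 63.9, 41.0 and 61.2 CPM in Control, 26.3, 18.7 and 24.8 in Aged ovaries, and 40.9, 32.4 and 31.7 in Aged+CF. The 3 groups did not overlap, Control highest and Aged lowest, the Aged+CF maximum lying just under the Control minimum. The means were 52.2 ± 11.97, 23.3 ± 4.02 and 35.02 ± 5.13 CPM. Gli1 fell 2.24-fold in Aged vs Control (log2 fold change -1.17, SE 0.20, edgeR adjusted p 0.00833), a call that held when any single ovary was left out, with adjusted p-values from 0.00861 to 0.0272.

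In Aged+CF vs Aged the log2 fold change of Gli1 was 0.59 (SE 0.21, 1.51-fold), with an unadjusted p of 0.0182 and an edgeR adjusted p of 0.226. Against Control, Aged+CF gave -0.58 (SE 0.20), with an unadjusted p of 0.0146 and an adjusted p of 0.239, and its fold change of 1.49 stood just under the limit. The treated ovaries thus lay between the others, and neither difference passed. Gli1 overlaps Arhgap9 on the opposite strand over 62 exon bases. With 99 to 331 reads on Arhgap9 in all, against 265 to 1154 on Gli1, the reads on the shared bases cannot be told apart without strand.

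Hhip (ENSMUSG00000064325, chr8:79965851-80058006, minus strand), which binds and traps the ligand and is itself a target, had the largest fold change of the 9 in Aged vs Control. Its level was 22.1, 39.4, 26.4 and 28.5 CPM in Control, 12.3, 7.62 and 0.441 in Aged ovaries, and 22.1, 10.5 and 20.4 in Aged+CF. The Aged and Control ranges did not overlap, and Aged replicate 34 held only 8 reads of Hhip. The means were 29.1 ± 7.38, 6.78 ± 5.97 and 17.6 ± 6.28 CPM. Aged vs Control gave a log2 fold change of -2.10 (SE 0.72, 4.3-fold lower), with an unadjusted p of 0.0155 and an edgeR adjusted p of 0.0759. Without Aged replicate 34 it was -1.504 (SE 0.35) with an adjusted p of 0.0162, which passed. The treated ovaries gave 1.38 against Aged (95% interval -0.26 to 3.03, adjusted p 0.376) and -0.72 against Control (-2.22 to 0.78, adjusted p 0.667).

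The 3 readout genes Ptch1, Gli1 and Hhip thus were lowest on average in Aged, but they did not order the Aged ovaries alike. In Aged replicate 34, Hhip was at 0.441 CPM and Ihh at 6.40, while Ptch1 at 83.3 and Gli1 at 24.8 were close to the values of the other Aged ovaries. The follicle markers Amh and Gdf9 were also lowest in that ovary, and the rest of the granulosa list was mixed. Inhbb was at 112 CPM in Aged replicate 34 against 814 and 631 in the other Aged ovaries, and Nr5a2 at 114 against 441 and 274. Esr2 was at 28.6 against 65.9 and 49.1, Hsd17b1 at 125 against 203 and 284, and Inhba at 370 against 743 and 442. Another 4 granulosa markers in that ovary were close to the other Aged ovaries. Fshr, the FSH receptor, was at 12.6 CPM there against 10.7 and 9.10 in the other Aged ovaries, and Inha, a subunit of inhibin, at 2249 against 1542 and 2253. Foxl2 was at 311 against 346 and 351, and Cyp19a1, the aromatase that makes estradiol, at 37.9 against 31.02 and 45.9. Amh stood at 355, 722, 415 and 506 CPM in Control, at 90.2, 131 and 3.25 in Aged ovaries, and at 149, 165 and 160.0 in Aged+CF. Gdf9 stood at 85.1, 115, 87.0 and 98.9 in Control ovaries, at 22.5, 25.8 and 3.64 in Aged ovaries, and at 36.2, 29.1 and 45.05 in Aged+CF. The summed oocyte list was 412 ± 65.0 CPM in Control, 66.2 ± 46.9 in Aged ovaries and 163 ± 37.8 in Aged+CF, and 9 of its 10 genes were called lower in Aged vs Control. The part of the follicle markers in the Hedgehog differences was not tested.

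**Figure D3:**
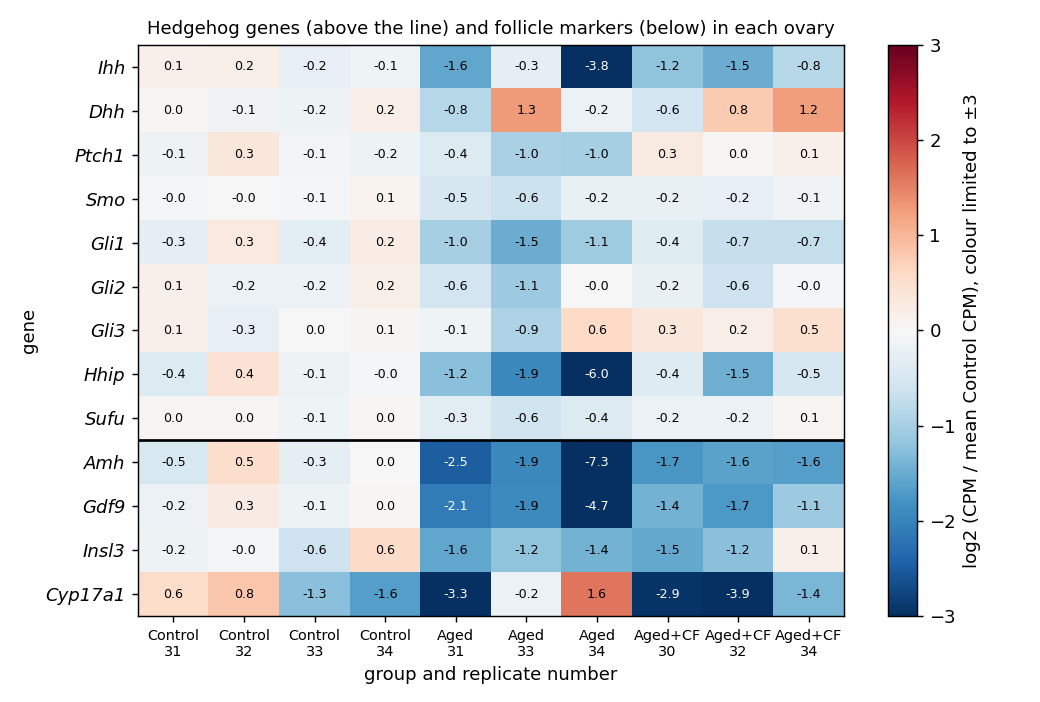
Each Hedgehog gene (above the line) and 4 follicle markers (below it) in each ovary, as log2 of CPM over the mean Control CPM, with the colour scale limited to ±3. Aged replicate 34 has the darkest cells for Ihh, Hhip, Amh and Gdf9, whereas its Ptch1 and Gli1 are near those of the other Aged ovaries.

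Smo (ENSMUSG00000001761, chr6:29735503-29761365, plus strand), the transducer that PTCH1 restrains, had a small difference. Its level was 222, 227, 219 and 246 CPM in Control, 162, 147 and 196 in Aged ovaries, and 194, 192 and 213 in Aged+CF. Every older ovary was below every Control ovary. The log2 fold change in Aged vs Control was -0.44 (SE 0.11, 1.36-fold lower), with an edgeR adjusted p of 0.0246, so it passed the p but not the fold limit. Aged+CF vs Aged gave 0.25 (SE 0.11, adjusted p 0.316), and Aged+CF vs Control gave -0.19 (SE 0.11, adjusted p 0.441).

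Sufu (ENSMUSG00000025231, chr19:46396896-46488804, plus strand), the cytoplasmic inhibitor that holds GLI factors, showed a difference of similar size. Its level was 87.5, 86.3, 78.2 and 87.3 CPM in Control, 68.6, 56.4 and 64.0 in Aged ovaries, and 75.3, 75.2 and 88.5 in Aged+CF. The Aged ovaries lay below all others, and Aged+CF overlapped Control. The log2 fold change was -0.43 (SE 0.10, 1.35-fold lower, edgeR adjusted p 0.0204) in Aged vs Control, again under the fold limit. It was 0.34 (SE 0.11, unadjusted p 0.00923, adjusted p 0.197) in Aged+CF vs Aged and -0.09 (SE 0.10, adjusted p 0.718) in Aged+CF vs Control. A negative regulator and a positive one of the pathway were therefore both lower in Aged by similar amounts.

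Gli2 and Gli3, the GLI factors that are present before any signal, did not pass in any comparison. Gli2 (ENSMUSG00000048402, chr1:118834132-119053619, minus strand), the main activator, stood at 38.5, 30.7, 30.98 and 39.1 CPM in Control, at 23.4, 16.3 and 34.5 in Aged ovaries, and at 30.04, 22.5 and 33.98 in Aged+CF. The Aged vs Control log2 fold change was -0.49 (95% interval -1.03 to 0.04, edgeR adjusted p 0.194), with Aged replicate 34 inside the Control range. Without that ovary it was -0.77 with an adjusted p of 0.0288, which passed. The change was 0.22 (-0.35 to 0.79, adjusted p 0.693) in Aged+CF vs Aged and -0.27 (-0.80 to 0.26, adjusted p 0.64) in Aged+CF vs Control.

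Gli3 (ENSMUSG00000021318, chr13:15463235-15730026, plus strand), the main repressor, stood at 14.1, 10.7, 12.8 and 13.4 CPM in Control, at 11.6, 6.70 and 19.2 in Aged ovaries, and at 16.1, 14.6 and 17.8 in Aged+CF. The Aged ovaries lay on both sides of Control, and every Aged+CF ovary was above every Control ovary. The log2 fold change was -0.02 (95% interval -0.66 to 0.62, edgeR adjusted p 0.968) in Aged vs Control, and 0.0012 with DESeq2's size factors, so its sign depended on the scaling. It was 0.37 (-0.32 to 1.05, adjusted p 0.572) in Aged+CF vs Aged and 0.34 (-0.29 to 0.98, adjusted p 0.617) in Aged+CF vs Control. Gli3 shares 188 exon bases with Gm6556 on the opposite strand, on which 1 to 21 reads were counted.

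The ratio of the target activator Gli1 to the repressor Gli3 was then taken within each ovary from the deposited FPKM. It was 5.31, 10.4, 5.56 and 7.94 in Control ovaries, 3.96, 4.85 and 2.24 in Aged ovaries, and 4.42, 3.86 and 3.11 in Aged+CF. All older ovaries lay below all Control ovaries, and the treated ovaries lay within the Aged range. On the log2 scale it was 2.81 ± 0.46, 1.81 ± 0.58 and 1.91 ± 0.26. The difference was -1.005 in Aged vs Control (two-sided exact permutation p = 0.0286, adjusted 0.0572 over the 6 ratio comparisons). It was -0.90 in Aged+CF vs Control (exact p = 0.0571, adjusted 0.0856) and 0.10 in Aged+CF vs Aged (exact p = 0.9, adjusted 0.9). Hence the level of Gli1 stood between Aged and Control in Aged+CF, whereas its level relative to Gli3 was near that of Aged.

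**Figure D4:**
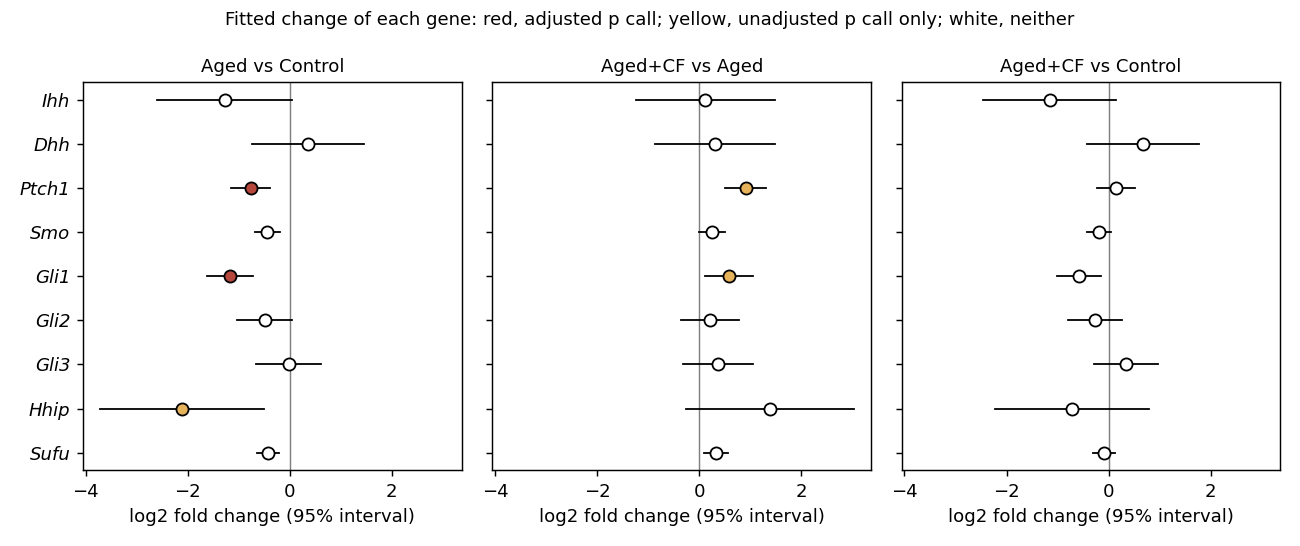
Fitted log2 fold change (horizontal axis) of each Hedgehog gene with its 95% interval in the 3 comparisons, where red marks a call at the adjusted p, yellow a call at the unadjusted p alone and white neither. Ptch1 and Gli1 are red to the left of 0 in Aged vs Control and yellow to the right of 0 in Aged+CF vs Aged, and Hhip is yellow in Aged vs Control with a wide interval.

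Over the 9 genes, Aged+CF vs Aged gave 0 calls at the adjusted p. At the unadjusted p, Ptch1 and Gli1 passed, both higher, which is 2 of 9 where 3.91% of all genes tested passed in that direction. The ranges of Aged+CF and Aged did not overlap for Ptch1, Gli1 and Sufu, higher in Aged+CF each time (10.2% of all genes). All 9 fold changes were positive, with a median log2 fold change of 0.34 against -0.02 for all genes tested. Without Aged replicate 34, 4 of the 9 passed at the unadjusted p (Ptch1, Gli1, Gli3 and Hhip), where 12.2% of all genes did in either direction, and none at the adjusted p, where 2.87% did, the smallest adjusted p of the 9 being 0.0575 for Ptch1. DESeq2's Wald test called Ptch1 alone of the 9, at an adjusted p of 0.00136, where it called 2.49% of the genes it tested. Limma on log2 FPKM called 0 of the 9, and the share of all genes it called is not given here. The 9 positive signs are not independent of Aged vs Control, where 8 of 9 were negative, since the same Aged ovaries enter both.

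In Aged+CF vs Control, none of the 9 genes was called at either p in edgeR. In that fit 0.179% of all genes tested passed at the adjusted p and 7.69% at the unadjusted p. DESeq2 called none of the 9 at the adjusted p, where it called 2.57% of the genes it tested. Limma called none of the 9 either, and the share of all genes it called is not given here. The ranges did not overlap for 4 of the 9 genes (21.9% of all genes in either direction). Of these, Ihh, Smo and Gli1 were lower and Gli3 higher in Aged+CF. With only those groups in the edgeR fit, Ihh was called, with a log2 fold change of -1.13 and an adjusted p of 0.0214. The share of all genes called in that smaller fit is not given here, so this call has no background to be set against. The summed CPM of the 9 genes was 654 to 781 in Control ovaries, 439.8 to 466 in Aged ovaries and 570.2 to 669.8 in Aged+CF.

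Levels of different genes were compared by the deposited FPKM. In Control, Smo at 37.6 ± 1.86 FPKM and Ihh at 24.6 ± 3.18 led, with ranges apart from each other and from the rest. Sufu at 9.12 ± 0.42, Gli1 at 9.05 ± 1.98 and Ptch1 at 6.63 ± 1.07 followed with overlapping ranges, then Gli2 at 4.91 ± 0.65. Hhip at 3.04 ± 0.74 and Dhh at 2.65 ± 0.29 overlapped, and Gli3 at 1.27 ± 0.16 was lowest. In Aged, Smo was highest at 25.5 ± 5.44 FPKM, and Ihh at 8.91 ± 7.86 overlapped Sufu at 6.23 ± 0.98. Gli1 at 3.72, Ptch1 at 3.58, Gli2 at 3.24, Dhh at 3.01, Gli3 at 1.17 and Hhip at 0.640 FPKM followed, each overlapping the next.

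In Aged+CF the order was Smo at 32.1 ± 1.72 FPKM, Ihh at 10.8 ± 2.44, Sufu at 8.35 ± 0.76, Ptch1 at 7.17 ± 0.68, Gli1 at 5.93 ± 0.96, Dhh at 4.08 ± 2.18, Gli2 at 3.97 ± 0.82, Hhip at 1.80 ± 0.66 and Gli3 at 1.57 ± 0.16. From Ihh to Gli2 each range met the next, and those of Hhip and Gli3 overlapped. The mean of Hhip lay under that of Gli3 in Aged through replicate 34 alone, at 0.0446 against 1.86 FPKM, while Hhip was above Gli3 in the other Aged ovaries, at 1.204 against 1.08 and at 0.670 against 0.563. The place of Ptch1 depends on the length used, since its FPKM implies 25815 bases, whereas its longest coding transcript has 7725 and all its exons together 14185. With each gene on its longest coding transcript, Ptch1 would stand at rank 3 in Control at 22.2 FPKM, after Ihh. In Aged+CF Ptch1 would stand at rank 2 at 23.95 FPKM, followed by Sufu at 17.75 and Ihh at 16.82. The FPKM of Sufu implies 9609 bases, against 4522 in its longest coding transcript. Comparisons of a gene between ovaries do not depend on length.

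The other genes of the pathway were taken as a list of 30, of which 29 were tested and Shh, a ligand at 5 counts or fewer in every ovary, was not. In Aged vs Control, 6 of the 29 fell and 2 rose at the adjusted p, with 6.06% and 5% of all genes as background, and 21 did not pass. Without the fold limit 10 passed, 8 of them lower, against 2927 of all 18956 genes tested, 1573 of them lower (8.3%). The median log2 fold change of the 29 was -0.23, and 24 of them were negative, as were 9491 of all 18956 genes tested. None of the 29 was called at the adjusted p for Aged+CF against Aged or against Control. At the unadjusted p, 3 passed against Aged (Scube1, Scube3 and Gsk3b, all higher) and 0 against Control, with medians of 0.26 and -0.09. Of all genes tested, 3.91% passed higher against Aged at the unadjusted p, and 7.69% passed against Control in either direction. DESeq2 called Scube1 alone in Aged+CF vs Aged, where it called 2.49% of the genes it tested. It called none of the 29 in Aged+CF vs Control (2.57% of the genes it tested). Limma called none of the 29 in either comparison, and the share of all genes it called is not given here.

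Of the 6 genes tested in the role of ligand and ligand release, which left out the ligand Shh, 2 fell in Aged. Scube1, a secreted protein that helps carry the lipid-bound ligand, went from 30.2 CPM in Control to 13.1 in Aged (log2 fold change -1.21, SE 0.20, edgeR adjusted p 0.00691). Scube3, a relative of it, went from 21.03 to 11.7 (-0.85, SE 0.18, adjusted p 0.0159). Scube1 stood at 24.5, 36.5, 29.4 and 30.2 CPM in Control, at 16.9, 12.4 and 9.87 in Aged ovaries, and at 25.3, 22.9 and 22.0 in Aged+CF, so Aged lay below both other groups. In Aged+CF vs Aged both passed at the unadjusted p alone, Scube1 with a log2 fold change of 0.84 (adjusted p 0.161) and Scube3 with 0.63 (adjusted p 0.191).

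Among the 5 receptors and coreceptors, 1 passed in Aged vs Control. Gas1, a coreceptor that helps ligand bind Patched, rose from 103 to 186 CPM (log2 fold change 0.86, SE 0.18, edgeR adjusted p 0.0147). It was highest in Aged replicate 34 at 241 CPM against 154 and 164 in the other Aged ovaries, which also lay above every Control ovary (83.6 to 112). Without that replicate the log2 fold change was 0.67 (edgeR adjusted p 0.0173).

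Of 6 genes that act on SMO at the cilium, Evc2, part of the complex that carries the SMO signal at the base of the cilium, fell from 113 to 62.9 CPM (log2 fold change -0.85, SE 0.13, edgeR adjusted p 0.0058). Of 12 genes of GLI processing, 3 fell and 1 rose in Aged. Kif7, a ciliary kinesin, went from 28.5 to 16.7 CPM (-0.77, SE 0.18, adjusted p 0.0224). Stk36, a kinase related to fly Fused, went from 18.4 to 9.47 (-0.96, SE 0.14, adjusted p 0.00528). Gsk3b, a kinase that marks GLI factors for processing and acts in many other pathways, went from 120 to 47.7 (-1.33, SE 0.28, adjusted p 0.0159). Prkaca, the catalytic subunit of protein kinase A, which also starts GLI processing and carries gonadotropin signals, rose from 148 to 237 (0.68, SE 0.15, adjusted p 0.018).

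Of the 8 pathway genes called, 4 lost the call in edgeR when a certain ovary was left out, none of them Aged replicate 34. Prkaca lost it without Control replicate 32, Control replicate 34 or Aged replicate 31, with adjusted p-values of 0.0538, 0.0511 and 0.0505. Kif7 lost it without Control replicate 32 or 34 (0.0559 and 0.0594), and without Aged replicate 33 its log2 fold change of -0.52 stood under the fold limit. Gsk3b lost it without Aged replicate 31 (0.0543) and Scube3 without Aged replicate 33 (0.0527).

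**Figure D5:**
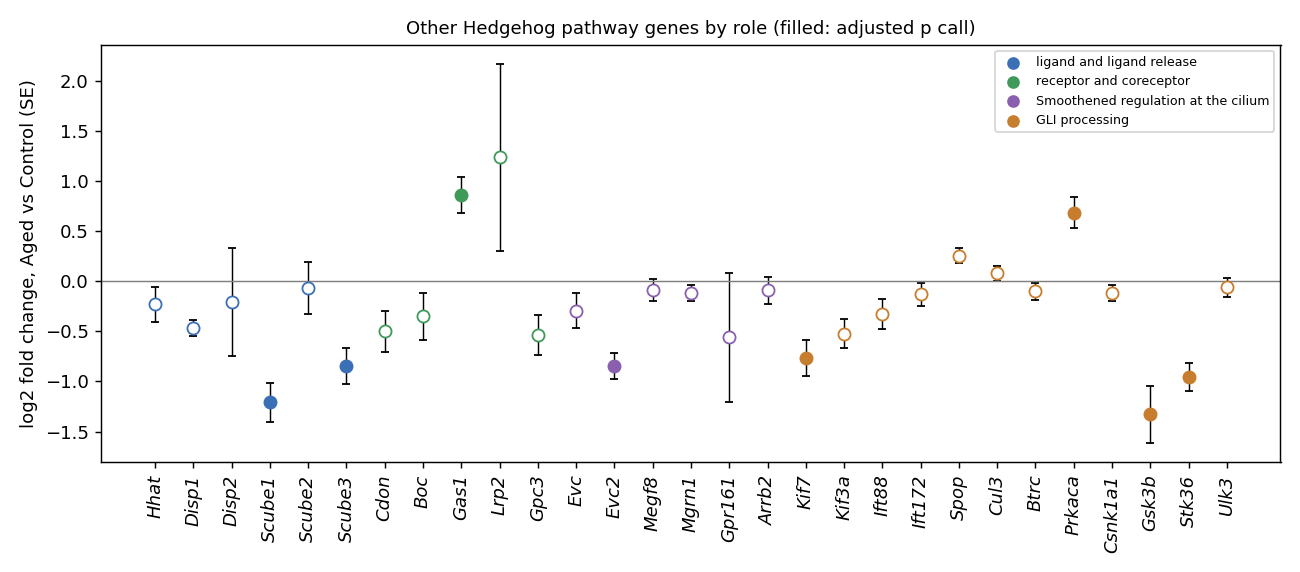
Log2 fold change in Aged vs Control (vertical axis, bars are SE) of the 29 other Hedgehog pathway genes tested, coloured by role, with filled points for calls at the adjusted p. The filled points below 0 are Scube1, Scube3, Evc2, Kif7, Gsk3b and Stk36, and those above 0 are Gas1 and Prkaca.

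Of 7 further target genes, 6 were tested, and 1 fell in Aged vs Control. This was Mycn, a growth-promoting transcription factor, which stood at 53.0, 64.4, 34.2 and 42.5 CPM in Control, at 18.6, 20.9 and 8.11 in Aged ovaries, and at 21.6, 19.5 and 25.6 in Aged+CF (log2 fold change -1.62, SE 0.32, edgeR adjusted p 0.0127). Mycn in Aged+CF gave a difference from Aged that did not pass (0.49, SE 0.33, adjusted p 0.484). Every Aged+CF ovary was below every Control ovary for Mycn. In Aged+CF vs Control none of the 6 was called at the adjusted p, where 0.179% of all genes tested were. Nr2f2, a stromal nuclear receptor, was at 171 CPM in Control and 162 in Aged (-0.08, SE 0.13, adjusted p 0.748). The median log2 fold change of the 6 was 0.18, with 3 of them negative.

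Markers of receiver cells other than steroid-making cells were mostly not called. None of the 7 smooth muscle, 6 stromal fibroblast and 6 surface epithelium markers was called in Aged vs Control. The summed fibroblast list was 2973 ± 228 CPM in Control, 2702 ± 1637 in Aged ovaries and 2989 ± 299.5 in Aged+CF, and the smooth muscle list 1884 ± 179, 1703 ± 843 and 1399 ± 314. The Aged means rested on replicate 34. The fibroblast list was 2286, 1313 and 4507 CPM in Aged replicates 31, 33 and 34, of which the first 2 lay below every Control ovary (2779 to 3275). The smooth muscle list was 1082, 1365 and 2663, again with the first 2 below every Control ovary (1658 to 2062). All 6 luteal markers and 4 of 6 theca markers (Cyp11a1, Star, Lhcgr and Hsd3b1) were called higher in Aged, as were 4 of 5 endothelial and 4 of 6 leukocyte markers. The part of these markers in the Hedgehog differences was not tested.

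The genes whose level over the 10 ovaries was most like that of each member are given as a description, from 16743 genes with a mean of at least 1 CPM, by Pearson's r of log2 CPM. For Ihh these were Fbxw16 (r = 0.98), Gm15452 (0.98) and E330011O21Rik (0.98), and for Hhip they included Fbxw13 and Crtac1 (0.99 each). For Ptch1 they were Acvr2b, Rad51d and Nemp1 (0.94 each), and for Gli1 Setdb1 (0.99), Hnrnpu (0.985) and Col4a3 (0.98). For Dhh they were Gnai3 (0.88), Vps37b (0.87) and Ahdc1 (0.86), lower than for the others. The ovaries fall into groups that differ in many genes, and these values rest on that.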

How the data were processed

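Total RNA of 10 mouse ovaries was sequenced, 4 of Control, 3 of Aged and 3 of Aged+CF mice, and ovaries were grouped by their labels. For every gene the authors deposited the raw count of reads, with no normalization. TopHat, Cufflinks 2.1.1 and GRCm38.p4 are named in the submitters' processing notes, and the counting tool and its strand setting are not given in the sources used here. The authors also deposited FPKM values, which equal the count divided by a fixed length per gene and by the total count, so the length chosen for a gene moves its level against other genes but not its comparison between ovaries.

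The counts were tested in edgeR 4.0 (R 4.3). Its filter on low counts left 18956 of 55487 genes, TMM set the scale of the libraries, and 1 quasi-likelihood model with a mean for each group was fitted to the 10 ovaries together. p-values were adjusted by the Benjamini-Hochberg method over all genes tested. The study's methods give an adjusted p and its results an unadjusted one, so both calls were made, each with a fold of at least 1.5. Nothing in the labels says whether same-group ovaries came from separate cages or days, so p-values measure the spread between these ovaries. Depth was 15761789 to 21318254 counted reads per ovary, and at this depth 1 CPM is 15.76 to 21.32 reads. Ratios of genes used FPKM and two-sided exact permutation tests over ovaries. Positions came from GENCODE M21 on GRCm38 and promoters from RefSeq on GRCm38.p6. Figures were drawn with matplotlib 3.10 in Python 3.11. The fit was tested on simulated data.

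All 9 Hedgehog genes are named. Genes of the pathway and target lists are named where they passed at the adjusted p in any comparison, and a few others (Shh, Nr2f2, Esr2, Foxl2) were named after their values were seen. The 3 genes most like Ihh, Dhh, Ptch1, Gli1 and Hhip were taken by correlation of log2 CPM (prior count 2). Some genes that the rule would name are not reported here, and the list counts leave out any that stood in a list. The members and lists were chosen with earlier results of these data known. Alternatives were DESeq2's size factors, library size alone, no filter, the Wald test of DESeq2 1.42, limma 3.58 on log2(FPKM + 0.1), only the compared groups, the replicate number as a block, no fold limit, raw counts plus 1 for the ratios, and leaving out each ovary in turn. Leaving out ovaries for the counts at the unadjusted p and for the values of the named pathway genes was added after seeing the data.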

Additional observations from a re-analysis of the deposited data

Results flagged for a closer look

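Among the 9 genes in the 4 Control ovaries, the only group of at least 4 and so the only one examined by Dixon's test of a lone extreme value, 2 had an ovary far from the rest. For Ptch1 the gap of the highest ovary to the next was 0.865 of the group's range, above the test's critical value, with Control replicate 32 at 208 CPM and the others at 148 to 156. Without that ovary Ptch1 stayed called in Aged vs Control. For Sufu the gap of the lowest ovary was 0.866 of the range, with Control replicate 33 at 78.2 CPM and the others at 86.3 to 87.5. Chance gives such a value in about 1 of 20 groups, and 9 were examined. The groups of 3 were not examined.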

How the results depend on the processing

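Over 34 refits of Ptch1 and Gli1 in Aged vs Control, 31 kept the call, 3 lost it and 0 changed direction. Over 459 refits of all member fold changes, 433 kept their direction and stayed called or not called as before. A further 3 lost and 7 gained a call, and 16 reversed. Apart from Ptch1 and Gli1 in Aged vs Control, none of the member fold changes was called in the main fit. In Aged vs Control, limma on log2 FPKM called 4 members (adding Ihh at -1.98, adjusted p 0.0476, and Hhip at -2.55, adjusted p 0.0228). The share of all genes that limma called is not given here, and FPKM is scaled by total count without TMM. Dropping the fold limit passed 4, all lower, where 8.3% of all genes passed lower. Leaving out ovaries gave 2 to 4 members and 6 to 11 other pathway genes, where 5.74% to 16.1% of all genes were called. The 4 members came without Aged replicate 34 (adding Gli2 and Hhip), where 16.1% of all genes were called. At the unadjusted p, leaving out ovaries gave 3 to 5 members in Aged vs Control (16.2% to 22.1% of all genes), 1 to 4 in Aged+CF vs Aged (5.95% to 12.2%) and 0 to 2 in Aged+CF vs Control (4.38% to 10.3%).

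With DESeq2's Wald test, 1 member (Ptch1, 0.90) and 1 other pathway gene passed in Aged+CF vs Aged, where 2.49% of the genes it tested passed. With only the compared groups, 1 member (Ihh) passed in Aged+CF vs Control, and the share of all genes called in that fit is not given here. Library size alone shifted the median log2 fold change of all genes in Aged vs Control to -0.13 and gave 650 higher and 1631 lower calls against 948 and 1148. The cause of these changes was not tested.

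Same-numbered ovaries did not deviate together (correlations from -0.18 to 0.15), so no pairing by number was seen. Few ovaries share a number, so this check cannot exclude a pairing or a shared batch. With the replicate block, 0 members and 0 other pathway genes were called in Aged vs Control (Ptch1 -0.73, adjusted p 0.0941, and Gli1 -1.06, adjusted p 0.0577), where the block left 80 calls among all genes against 2096.

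Reversals concerned members that were not called. In Aged vs Control, Gli3 was 0.0012 with DESeq2's size factors, 0.004 with its Wald test and -0.44 to 0.30 over left-out ovaries, and Dhh was -0.0293 in limma and -0.44 to 0.75 over left-out ovaries. In Aged+CF vs Aged, leaving out ovaries gave -0.40 to 1.13 for Ihh, -0.11 to 1.14 for Dhh and -0.0042 to 0.52 for Gli2.

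With an ovary left out, an exact test on the ratios cannot reach 0.05. The log2 differences of Ihh to Dhh were then -2.60 to -1.12 in Aged vs Control, -0.54 to 0.94 in Aged+CF vs Aged and -2.18 to -1.36 in Aged+CF vs Control, and those of Gli1 to Gli3 were -1.24 to -0.68, -0.22 to 0.34 and -1.04 to -0.71.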
